A study of Mus musculus with 6 samples.

Results

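GABA (γ-aminobutyric acid) is made, broken down and sensed inside pancreatic islets, and 8 genes of that system were read here in 6 islet RNA libraries. They are Gad1, Gad2, Abat, Aldh5a1, Slc32a1, Gabra4, Gabbr1 and Gabbr2, picked by gene name from a deposited table of 54532 genes; all 8 names were present, each on a single row. They were chosen by people who already knew how Gad1 differed between the groups, so the values of these 8 genes are given as a description, with no test result for any of them. The islets came from mice aged 7 weeks, and 3 mice were combined for each sample. The 3 control samples are Wtap flox/flox: both copies of Wtap carry recombination sites and no deletion is stated. The other group, 3 samples, carries the genotype label Wtap-βKO, a knockout of Wtap aimed at insulin-producing β cells. The labels record no treatment for either group. The Cre driver, the deleted part of Wtap and the share of β cells recombined are not given in the sources used here. WTAP helps the methyltransferase complex of the nucleus place N6-methyladenosine (m6A) on RNA. Its role in β-cell function is the question of the series.

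Glutamate decarboxylases, the products of Gad1 and Gad2, turn glutamate into GABA with pyridoxal phosphate as cofactor. The transaminase ABAT then removes the amino group, and succinic semialdehyde dehydrogenase, from Aldh5a1, passes the carbon to succinate, so that the route bypasses part of the citric acid cycle and is called the GABA shunt. The vesicular carrier from Slc32a1 loads GABA into synaptic vesicles of neurons. Released GABA opens chloride channels (GABA-A receptors, of which Gabra4 encodes an α subunit) or acts on the G-protein-coupled GABA-B receptor, an obligate pair of the Gabbr1 and Gabbr2 products. Islet β cells are among the few cells outside the nervous system that hold much GABA.

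The stretches of DNA upstream of Gad1 and Gad2 are shown because these paralogues make the same product and stood far apart in level. Each runs from 250 to 131 bases before the RefSeq start site on the plus strand of GRCm38.p6 and holds no annotated exon; the Gad1 stretch lies in an intron of a Gad1 transcript that begins further upstream, and the Gad2 stretch lies before the gene. The Gad1 stretch is chr2:70561879-70561998 and the Gad2 stretch is chr2:22622077-22622196. Capitals mark the letters TATAAA of the TATA box motif, the box named CCAAT and the MAF-binding core TGCTGA, each searched on both strands, and no match overlaps another. The GC box GGGCGG, the E box CANNTG and the homeodomain motif TAATTA were searched as well and had no match in either stretch; 12.8%, 41.8% and 2.53% of all promoter stretches hold them.
Gad1: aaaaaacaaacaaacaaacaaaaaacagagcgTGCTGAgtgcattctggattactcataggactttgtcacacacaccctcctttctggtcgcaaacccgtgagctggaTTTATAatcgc
Gad2: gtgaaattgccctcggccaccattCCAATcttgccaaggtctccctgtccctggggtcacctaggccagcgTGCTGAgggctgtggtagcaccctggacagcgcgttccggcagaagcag
Both stretches hold 1 TGCTGA, which 7.79% of 32851 promoter stretches of the same length and position hold. The Gad1 stretch holds 1 TATAAA (6.04% of all) and the Gad2 stretch 1 CCAAT (16.2% of all). The TATAAA of Gad1 reads on the minus strand, at -141 from the start site. GC content was 42.5% for Gad1 and 62.5% for Gad2, against a median of 50.8%. A match describes letters only and says nothing of binding. RefSeq held promoter entries for 7 of the 8 genes, all but Abat.

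GGACT, a common form of the sequence in which m6A is written, was counted in the GENCODE M21 transcript with the longest coding sequence. The coding sequence of Gad1 (1779 bases, 17 exons in the transcript) holds 1 GGACT, and that of Gad2 (1755 bases) holds 2. They are shown, with 10 bases on each side and GGACT in capitals, since WTAP belongs to the m6A writer; the position is that of the first G counted from the start of the coding sequence.
Gad1 position 1132: ctggggtggtGGACTgctcatgtcc
Gad2 position 1237: tagagaggagGGACTgatgcagagc
Gad2 position 1388: agagcaaaggGGACTactgggtttg
The Gad1 site lies on chromosome 2 from 70591121 to 70591125 (GRCm38, plus strand). Over the whole transcript Gad1 holds 0.298 GGACT per kilobase, more than 10.5% of 12673 tested protein-coding genes, whose median is 1.05 per kilobase. Gabbr1 and Gabbr2 hold 6 each (1.14 and 1.04 per kilobase), Aldh5a1 4, Abat 3 and Gabra4 0. No methylation was measured in these libraries.

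Levels are in FPKM, the fragments of a gene divided by its length and by a library size, as the authors deposited them. Between 16353297 and 18682745 reads a library could be recovered from these values. The library size they imply was not the plain depth. It was 0.952 to 0.988 times the recovered reads in the controls and 1.04 to 1.07 times in the group labelled Wtap-βKO. Wtap itself read 10.5, 11.4 and 11.6 FPKM in the controls and 11.2, 11.9 and 12.3 in the other group; the value covers all its exons in all islet cells, so it does not check the deletion, and directions below are those of the libraries as labelled. Replicate 2 labelled Wtap-βKO stood apart from its group, since its reads differed from those of its fellow replicates by a chi-square of 18.1 and 17.2 per degree of freedom, where the other pairs within a group gave 5.38 to 6.61. Its Ppy, the pancreatic polypeptide gene, read 19590 FPKM against 9428 and 8761 in the other libraries of its group. The β-cell markers were present and their sum over 10 genes was 135142 to 155400 FPKM in the controls and 81971 to 92559 in the group labelled Wtap-βKO, with 8 of 10 called lower. Those not called were Iapp and Ins2, the largest part of the sum (means of 89397 and 56847 FPKM). The sum over 8 α-cell markers was 21347 to 25554 and 33899 to 44757 FPKM, with 5 of 8 called higher, and that over 6 δ-cell markers 3983 to 4355 and 5675 to 8325, with 4 of 6 called higher. Gcg, most of the α-cell sum (means of 22504 and 36405 FPKM), was not called. For 13 neuron and glia markers the sums were 98.4 to 109 and 70.6 to 77.6 FPKM, with 2 of 10 tested called lower, Th and Snap25, which endocrine cells also express; Slc17a6 was at 0 in all controls. Acinar markers summed to 91.1 to 164 and 163 to 230 FPKM, with 1 of 7 tested called higher. The stroma sums were 11.7 to 16.98 and 22.9 to 29.4 FPKM (Col1a1 and Col3a1 called higher, of 4 tested), and the duct sums 54.4 to 62.3 and 67.8 to 97.3 (Spp1 called higher, of 5 tested). The leukocyte sums were 11.8 to 13.3 and 7.496 to 8.13 FPKM (Cd79a called lower, of 3 tested), and for endothelium, at 132 to 159 and 154 to 176, none of 5 was called. The lower leukocyte sum came from Cd79a (means of 8.06 and 2.49 FPKM). Ptprc (0.446 and 0.531) and Adgre1 (1.72 and 2.41) were higher, and Cd68 (2.37 and 2.28) overlapped. None of the α-, β- or δ-cell markers found was at 0. In bulk islet RNA, fewer cells of a type and less RNA per cell cannot be told apart, and the part of these marker shifts in the results below was not tested.

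Gad1 (ENSMUSG00000070880, chromosome 2, 70553072 to 70602014, plus strand, GRCm38) was by far the more abundant of the glutamate decarboxylase genes, and it was much lower in the group labelled Wtap-βKO. Control replicates 1 to 3 read 16.1, 19.9 and 16.1 FPKM, from 2153, 2399 and 2194 reads. Replicates 1 to 3 labelled Wtap-βKO read 1.34, 3.71 and 1.56 FPKM, from 193, 508 and 205 reads. The lowest control was thus 12.4 FPKM above the highest library of the other group, and replicate 2 of that group was the highest of its 3. The means were 17.4 ± 2.18 and 2.20 ± 1.31 FPKM (SD, n = 3 each), a 7.88-fold lower level, and without replicate 2 labelled Wtap-βKO the ratio was 11.99. Leaving out any other single library gave a ratio between 6.59 and 8.17. On the log2(FPKM + 1) scale Gad1 stood at -2.59, and 5 of 15927 genes tested had a larger drop. Gad1 was chosen with its fall known, and adding 1 shrinks the drops of low genes, so nothing is read from that place. In the controls Gad1 ranked 2607th of all genes by level.

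An antisense gene, Gad1os, overlaps Gad1 on the minus strand without sharing exon bases. It had 13 reads over the 3 controls and 0 over the 3 libraries labelled Wtap-βKO. Gad1 itself had 6746 and 906 reads. The library protocol has no step that marks strand.

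Gad2 (chromosome 2, 22622205 to 22693874, plus strand), the paralogue whose protein is an autoantigen of autoimmune diabetes, was close to the detection limit. It had 4, 8 and 1 reads in the controls and 7, 3 and 4 reads in the group labelled Wtap-βKO, or 0.0449 ± 0.0387 and 0.0437 ± 0.0177 FPKM (SD, n = 3 each). The groups overlapped, and no difference was detectable at this depth. Per length, Gad1 stood between 231 and 1688 times above Gad2 in the control libraries and between 21.2 and 130 times above it in the others, ratios that rest on the few Gad2 reads. Slc32a1, the vesicular GABA carrier (chromosome 2, 158610767 to 158615748), had no read in any of the 6 libraries; 3 reads would be 0.0569 to 0.0679 FPKM, and this limit covers counting error only.

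**Figure D1:**
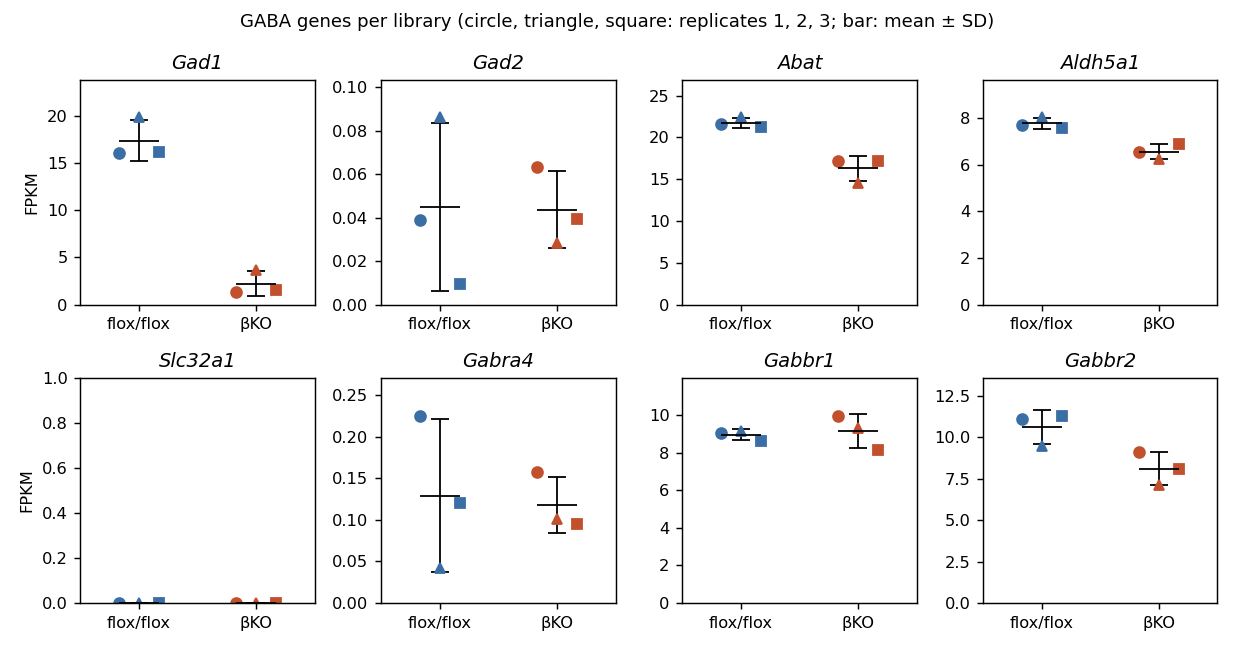
FPKM of the 8 GABA genes in each library, with the 3 Wtap flox/flox controls in blue and the 3 libraries labelled Wtap-βKO in red; circles, triangles and squares are replicates 1, 2 and 3, the long bar is the mean and the whiskers are the SD. Gad1 goes from 16.1 to 19.9 FPKM in the controls to 1.34 to 3.71 in the other group, Gabbr1 overlaps, and Gad2, Slc32a1 and Gabra4 lie near or at 0 on their own scales.

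The breakdown enzymes were lower by far less. Abat (ENSMUSG00000057880, chromosome 16, 8513429 to 8621568, plus strand) had the highest FPKM of the 8 genes, with 21.6, 22.4 and 21.3 FPKM in control replicates 1 to 3. It read 17.2, 14.6 and 17.1 FPKM in replicates 1 to 3 labelled Wtap-βKO. Every control was above every library of the other group, and the means of 21.7 ± 0.595 and 16.3 ± 1.47 FPKM (SD, n = 3 each) made it 1.33-fold lower.

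Aldh5a1 (ENSMUSG00000035936, chromosome 13, 24907579 to 24937661, minus strand) read 7.70, 8.03 and 7.55 FPKM in the controls and 6.54, 6.22 and 6.88 in the group labelled Wtap-βKO. The groups did not touch, with means of 7.76 ± 0.242 and 6.55 ± 0.329 FPKM (SD, n = 3 each), 1.19-fold lower. Noncoding genes on the other strand, 4932702P03Rik and 9330162012Rik, share 796 and 203 exon bases with it, and had 108 and 124 reads in the controls against 2237 for Aldh5a1. Reads of shared bases cannot be assigned to a strand here.

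Within a library, the ratio of Gad1 to Abat sets the RNA of a GABA-making enzyme against that of the enzyme that starts its breakdown. It was 0.746, 0.887 and 0.759 in the controls and 0.0781, 0.254 and 0.0908 in the group labelled Wtap-βKO. Abat over Aldh5a1, the 2 steps of breakdown, was 2.80 ± 0.0120 and 2.49 ± 0.139 (SD, n = 3 each). A ratio within a library does not depend on how libraries are scaled to each other. Its size depends on the gene lengths used, which are the same in both groups.

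**Figure D2:**
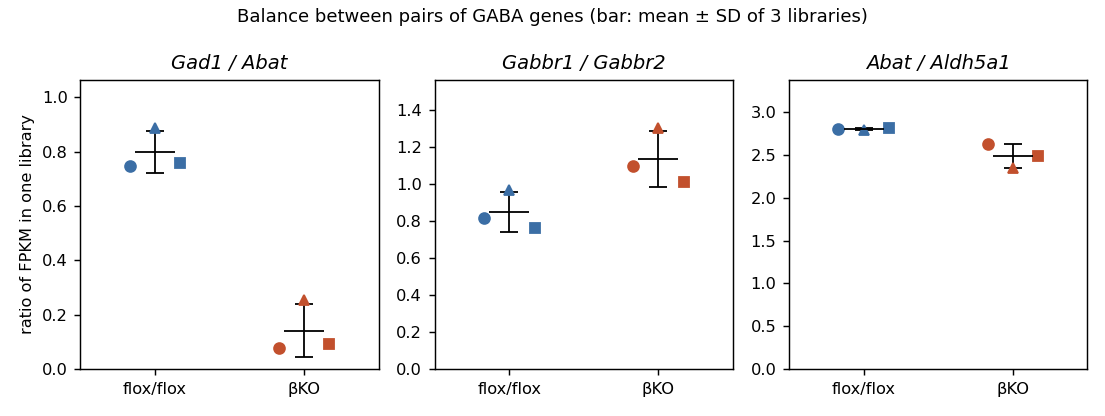
Ratios of FPKM between pairs of GABA genes inside each library, controls in blue and libraries labelled Wtap-βKO in red, with the mean and SD of 3 libraries; symbols are replicates 1, 2 and 3. Gad1 over Abat lies at 0.746 to 0.887 in the controls and 0.0781 to 0.254 in the other group, while Gabbr1 over Gabbr2 lies at 0.761 to 0.968 and 1.01 to 1.30.

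The subunits of the GABA-B receptor differed from each other in how the groups compared. Gabbr1 (ENSMUSG00000024462, chromosome 17, 37045966 to 37075067, plus strand), whose product binds GABA, read 9.06, 9.17 and 8.62 FPKM in the controls and 9.98, 9.31 and 8.17 in the group labelled Wtap-βKO. The groups overlapped, with both the highest and the lowest library in the latter group, and the means were 8.95 ± 0.294 and 9.15 ± 0.915 FPKM (SD, n = 3 each). Gabbr2 (ENSMUSG00000039809, chromosome 4, 46662305 to 46991873, minus strand), whose product couples to the G protein, read 11.1, 9.48 and 11.3 FPKM in the controls. It read 9.12, 7.14 and 8.09 FPKM in the group labelled Wtap-βKO, so that the groups were 0.363 FPKM apart and the mean 1.31-fold lower. The ratio of Gabbr1 to Gabbr2 was lower in every control (0.816, 0.968 and 0.761) than in any library of the other group (1.09, 1.30 and 1.01). Whether it lies below or above 1 depends on the gene lengths used. By reads, control replicate 2 had 1125 for Gabbr1 and 1001 for Gabbr2.

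Gabra4 (chromosome 5, 71569749 to 71658308, minus strand) had 24, 4 and 13 reads in the controls and 18, 11 and 10 in the group labelled Wtap-βKO. At 0.129 ± 0.0921 and 0.118 ± 0.0341 FPKM (SD, n = 3 each) the groups overlapped, and the controls alone spanned the values of the other group. It shares 46 exon bases with Gabrb1 on the opposite strand, which had 15 and 7 reads.

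By FPKM in the controls the order was Abat, Gad1, Gabbr2, Gabbr1, Aldh5a1, Gabra4, Gad2 and Slc32a1. This order rests on the deposited gene lengths, such as 7639 bases for Gad1 and 7748 for Abat. Their transcripts with the longest coding sequence have 3355 and 4636 bases, and with other lengths near genes could change places. The control libraries of Gabra4 and Gad2 overlapped, and Gad2 and Slc32a1 were parted by as little as 1 read; the other neighbours were apart, Gabbr2 and Gabbr1 by 9.48 against 9.17 FPKM at the nearest. In the group labelled Wtap-βKO, Gad1 moved behind Aldh5a1, and the ranges of Gabbr1 and Gabbr2 overlapped. Of the 8 genes, 5 had a mean of at least 0.5 FPKM and were in the table fitted over all genes, and 3 (Gad2, Slc32a1 and Gabra4) did not. Among those 5, 4 were lower with no overlap between groups, as were 22.1% of all genes tested. Since the genes were chosen with this contrast in view, nothing is read from this count.

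The genes nearest to Gad1 were sought among 7652 genes with at least 5 FPKM in the higher group, by the distance between their log2(FPKM + 1) profiles over the 6 libraries, each relative to its own control mean. They were Fam151a (distance 0.669), Slc2a2 (0.816), the granule protein gene Sytl4 (0.819), Cyp4f39 (0.834) and Prss53 (0.938). Slc2a2, the glucose transporter gene of rodent β cells, read 169, 198 and 169 FPKM in the controls and 34.9, 34.9 and 30.6 in the group labelled Wtap-βKO. Replicate 2 of that group, high for Gad1, was also the highest of its group for Fam151a (10.1 against 7.25 and 8.32), Sytl4 (21.5 against 15.9 and 15.8) and Prss53 (8.82 against 7.51 and 7.93), level with replicate 1 for Slc2a2, and not highest for Cyp4f39 (0.559 against 0.431 and 0.580). The distance included replicate 2, so the choice of genes favoured this likeness and nothing is read from it. Fold by fold, Gad1 (7.88) stood beside the insulin gene activator Mafa (7.26) and beyond Ins1 (2.57), Nkx6-1 (2.18), Ins2 (1.57) and Ucn3 (1.41), all lower. Of these markers Ins2 was not called by limma. The amylin gene Iapp, also made by β cells, read 13167 and 12959 FPKM and was not called. Gabbr1 had the highest log2 difference among the 5 tested members of the 8, at 0.03 with overlapping libraries, and its nearest genes were Zfp180, Ntan1, Taf8, Zfp526 and Uckl1 (distances 0.0593 to 0.0915).

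**Figure D3:**
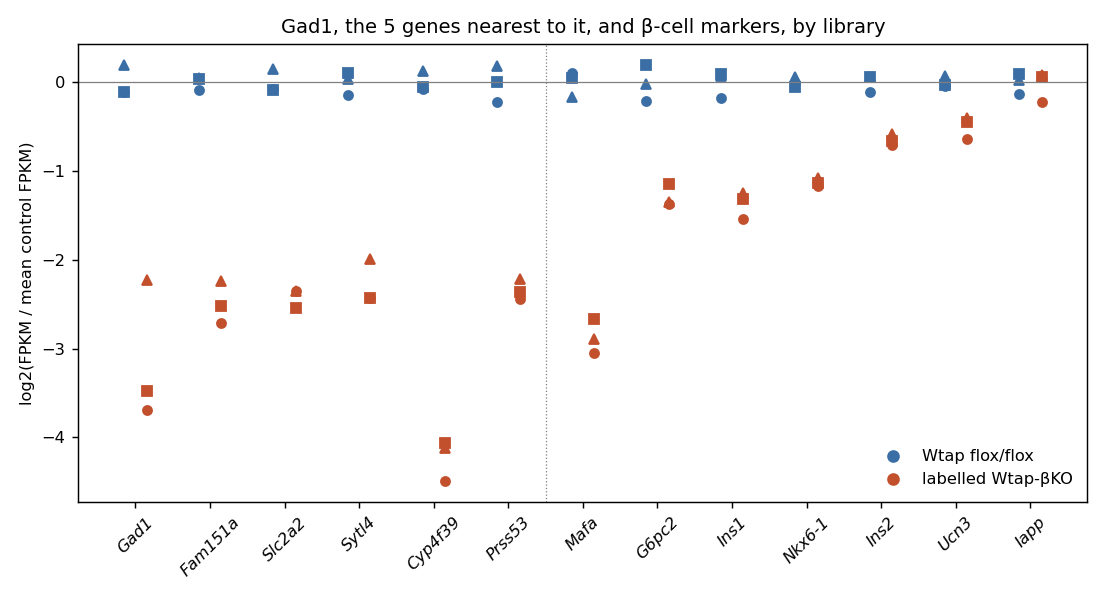
log2 of FPKM over the mean control FPKM for Gad1, the 5 genes nearest to it (left of the dotted line) and 7 β-cell markers (right), in each library; blue marks controls, red marks libraries labelled Wtap-βKO, and symbols are replicates 1, 2 and 3. Gad1 shows the widest spread within the red group among these genes, with replicate 2 at 3.71 FPKM against 1.34 and 1.56, and Iapp is level with the controls.

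Around the 8 genes, 100 other genes of GABA handling were listed by role, and 66 of them were tested. By limma 9 rose and 13 fell, 33.3% of those tested, beside 20.1% of all 15927 genes, of which 8.77% rose and 11.3% fell; their median log2 difference was -0.09 and that of all genes -0.0054. The libraries of each group were apart for 45 of the 66 (68.2%), against 41.3% of all genes. The lists were not matched to all genes in level. With only the 7830 genes averaging 5 FPKM or more tested, limma called 1026 higher and 1571 lower. That is a larger share than of all genes, and their median log2 difference was -0.046. The lists were also chosen with earlier results of these data known, so nothing is read from the difference in shares. By their labels the samples are biological replicates, made independently, and log2 differences refer to log2(FPKM + 1). The counts depended on scaling and on single libraries: scaled to total reads they were 12 and 7, and without control replicate 1, 2 or 3 they were 9 and 7, 6 and 7, and 6 and 7. Without replicate 1, 2 or 3 labelled Wtap-βKO they were 8 and 9, 11 and 14, and 8 and 8.

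Of 18 other GABA-A receptor subunit genes, 17 were below the filter. Gabra6 and Gabrr3 had no reads at all. Gabre, the highest of the untested subunits in the controls, read 0.493 and 0.389 FPKM, with overlapping libraries. All α subunit genes stayed under 0.5 FPKM, and Gabra4 was the highest of them in the controls.

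Of 13 genes for GABA and taurine carriers and for volume-regulated anion channels, 8 were tested, 1 rose and 1 fell. Slc6a6, the taurine carrier, which also moves GABA, fell from 46.7 ± 0.952 to 36.1 ± 2.05 FPKM (adjusted p = 0.00731 by limma). Slc6a8, the creatine carrier of the same family, rose from 4.77 ± 0.388 to 6.65 ± 0.200 FPKM (adjusted p = 0.0105 by limma). The GABA carrier genes Slc6a11, Slc6a12 and Slc6a13 were below the filter, with 33, 2 and 0 reads in the controls and 19, 4 and 5 in the other group, and the libraries of the groups overlapped for each of them. Lrrc8a, the required subunit of the volume-regulated channel, read 1.05 ± 0.250 and 1.19 ± 0.117 FPKM and did not pass the test.

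Of 21 genes that supply glutamate or take up the carbon leaving the shunt, 18 were tested, 2 rose and 4 fell. Gpt, an alanine aminotransferase that yields glutamate, rose from 4.07 ± 0.550 to 9.08 ± 0.945 FPKM (log2 difference 0.99, SE 0.11, adjusted p = 0.00184 by limma). Glul, the glutamine synthetase gene, fell from 127 ± 6.15 to 86.2 ± 9.87 FPKM (adjusted p = 0.00717 by limma), and Sdha, a subunit of the enzyme that oxidizes succinate, from 58.8 ± 0.319 to 44.2 ± 3.37 (adjusted p = 0.00685 by limma). Slc1a5, a glutamine carrier, rose from 2.10 ± 0.344 to 3.32 ± 0.413 FPKM (adjusted p = 0.0304 by limma), a call lost without control replicate 2 or 3 (0.0806 and 0.0710) and without replicate 2 or 3 labelled Wtap-βKO (0.0677 and 0.0960), and with no filter on low values (0.0784). The remaining 2 called genes, named after their values were seen, were the glutamine carrier gene Slc38a2 (18.9 ± 0.485 and 14.6 ± 1.96 FPKM) and Dlst (11.4 ± 0.478 and 9.53 ± 0.531 FPKM), a subunit of the oxoglutarate dehydrogenase that the shunt bypasses. The call of Slc38a2 was lost when any 1 library was left out, replicate 1 labelled Wtap-βKO excepted (adjusted p by limma up to 0.102), and that of Dlst without any 1 of the 6 (0.0659 to 0.132). The glutamate dehydrogenase gene Glud1 (36.8 ± 1.68 and 42.2 ± 2.12 FPKM) did not pass the test.

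Of 11 genes of the putrescine route to GABA and of succinic semialdehyde reduction, 8 were tested, 1 rose and 1 fell. Maob, a monoamine oxidase that can act in GABA synthesis from putrescine, read 76.3 ± 3.76 FPKM in the controls and 24.9 ± 2.59 in the group labelled Wtap-βKO, a 3.06-fold fall (log2 difference -1.58, SE 0.08, adjusted p = 0.000159 by limma; lower in 3 of 3 libraries). Its neighbour in function Maoa read 2.25 ± 0.459 and 2.38 ± 0.298 FPKM and did not pass. Akr7a5, an aldehyde reductase that acts on succinic semialdehyde, rose from 10.9 ± 0.963 to 15.8 ± 0.926 FPKM (adjusted p = 0.00705 by limma). Adhfe1, which oxidizes γ-hydroxybutyrate, was below the filter and is named after its values were seen; it had 8 reads in the controls and 74 in the other group, with no overlap between libraries.

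Of 23 partners of GABA receptors and proteins of their traffic, 19 were tested, 3 rose and 3 fell. Hap1, a trafficking adaptor of GABA-A receptors among other cargo, rose from 110 ± 4.04 to 183 ± 23.9 FPKM (log2 difference 0.72, SE 0.10, adjusted p = 0.00419 by limma). Kctd12b and Kctd8, auxiliary subunits of the GABA-B receptor, rose from 20.9 ± 0.592 to 28.6 ± 1.37 FPKM and from 2.67 ± 0.479 to 4.07 ± 0.250 FPKM (adjusted p = 0.00364 and 0.0248 by limma). Kctd12, of the same family, read 6.27 ± 0.799 and 7.83 ± 1.87 FPKM and did not pass. The palmitoyltransferase gene Zdhhc3 fell from 5.98 ± 0.105 to 4.82 ± 0.189 FPKM (adjusted p = 0.0267 by limma). The call of Kctd8 was lost without control replicate 2 or 3 or replicate 1 or 3 labelled Wtap-βKO (0.0638 to 0.0816), and that of Zdhhc3 without any 1 library other than replicate 2 of that group (0.0712 to 0.0852). Gphn, the gephyrin scaffold gene, and Ubqln1, named after their values were seen, fell 1.33-fold and 1.19-fold; leaving out any 1 library ended these calls, save replicate 1 labelled Wtap-βKO for Gphn and replicate 2 of that group for Ubqln1 (adjusted p by limma up to 0.0992 and 0.0917). Gabarap, the GABA-A receptor-associated protein gene, read 111 ± 8.82 and 91.6 ± 6.78 FPKM with an adjusted p of 0.0605 by limma.

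All 7 genes of the decarboxylase cofactor and of its membrane anchoring were tested, and 1 rose and 3 fell. Pdxp, which dephosphorylates pyridoxal phosphate, fell from 3.13 ± 0.249 to 1.62 ± 0.241 FPKM (log2 difference -0.66, SE 0.10, adjusted p = 0.00612 by limma). Zdhhc17, a palmitoyltransferase that acts on the Gad2 product, fell 1.35-fold (adjusted p = 0.01004 by limma), from 10.6 ± 0.293 to 7.89 ± 0.603 FPKM. Hspa8, a chaperone gene, rose from 213 ± 14.2 to 284 ± 23.0 FPKM (adjusted p = 0.0158 by limma), and the cysteine string protein gene Dnajc5 fell 1.16-fold (adjusted p = 0.0371 by limma). The call of Hspa8 was lost without control replicate 2 or 3 (0.0586 and 0.0590), and that of Dnajc5 without any 1 of the 6 libraries (0.0565 to 0.120).

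Of 7 chloride cotransporter genes, which set whether an opened GABA-A channel lets chloride in or out, 5 were tested and 1 fell. Slc12a7, a potassium-chloride cotransporter, fell from 12.7 ± 0.711 to 9.85 ± 0.357 FPKM (adjusted p = 0.0132 by limma). The chloride importer gene Slc12a2 read 5.00 ± 0.586 and 6.34 ± 0.123 FPKM (log2 difference 0.29, SE 0.09, adjusted p = 0.0536 by limma), and the exporter gene Slc12a5 read 6.18 ± 0.510 and 4.87 ± 0.450 (log2 difference -0.29, SE 0.09, adjusted p = 0.0567 by limma). Neither passed the test. Of the called genes named above, Slc6a6, Glul, Sdha, Kctd8, Gphn, Ubqln1, Hap1, Zdhhc3, Pdxp and Hspa8 overlap another annotated gene. The most abundant of those overlapping genes, Gm20394 at Hap1, had a mean of 3.26 FPKM.

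**Figure D4:**
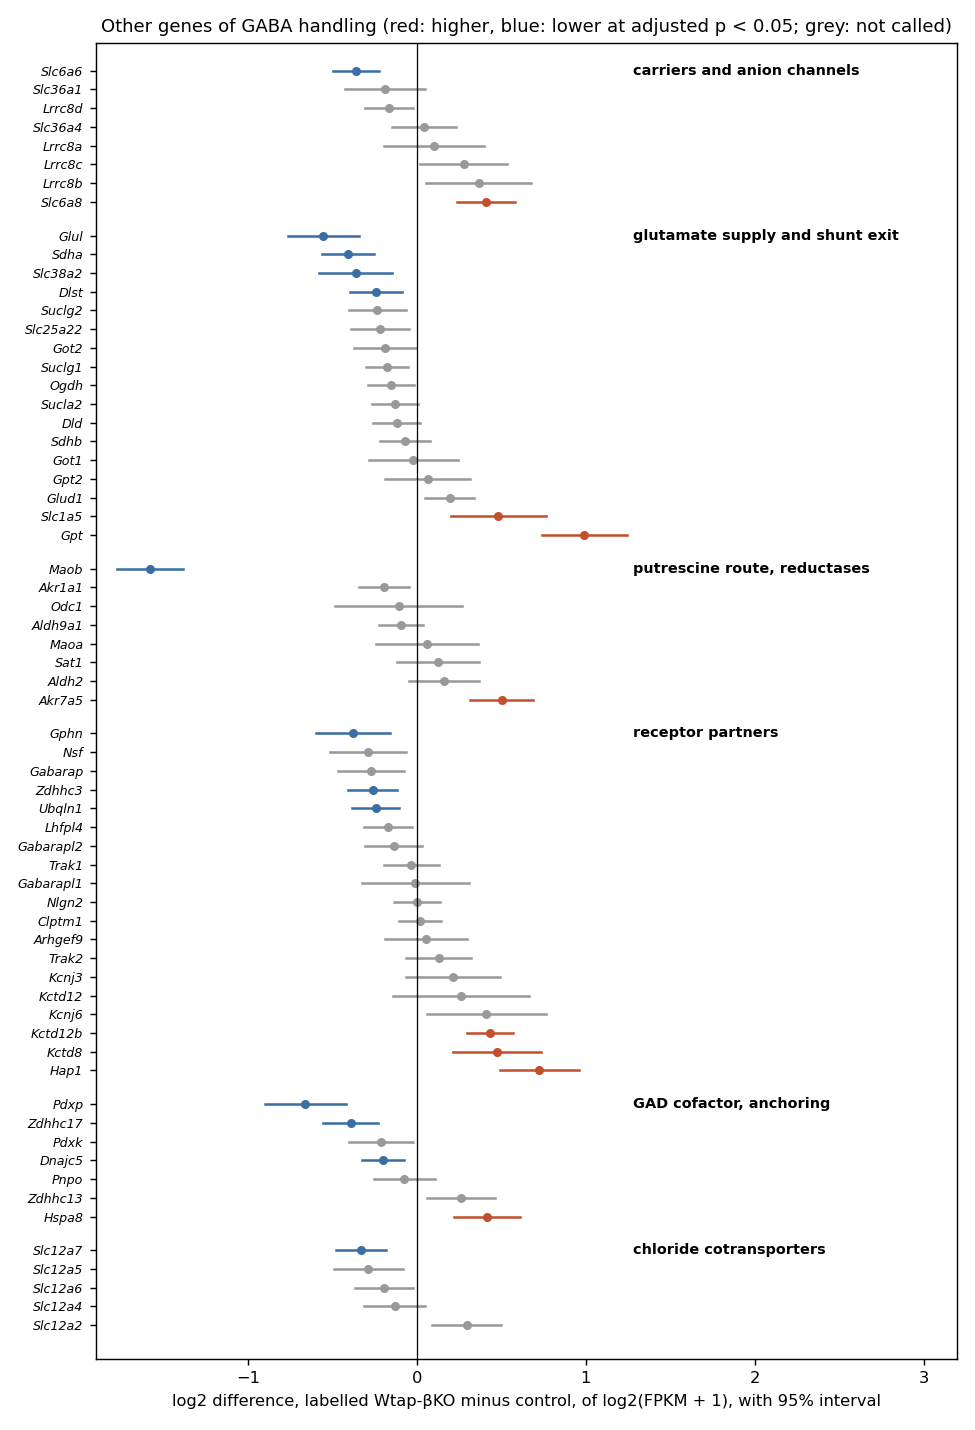
Log2 differences of log2(FPKM + 1), libraries labelled Wtap-βKO minus controls, for 64 tested genes of GABA handling other than the 8 above, grouped by role, with 95% intervals from limma; red and blue mark adjusted p under 0.05. Maob (-1.58) and Gpt (0.99) lie farthest from 0, and the other intervals lie between -1 and 1; grey marks genes that were not called.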

How the data were processed

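Poly-A RNA of 6 islet samples was sequenced. The authors deposited FPKM values beside gene lengths, per the file headers. DESeq2 1.20.0, featureCounts 1.5.0-p3, HISAT2 2.0.5 and CASAVA are listed, without their roles, in the submitters' processing notes, as are the builds GRCm38 and mm10. FPKM times gene length gave whole reads within 0.01 read for 100% of values. The median-of-ratios factor was 1.01 in every sample, so the deposited values already carried a scaling between samples and were used unscaled. The 15927 genes averaging 0.5 FPKM or more were tested as log2(FPKM + 1) with limma 3.58.1 in R 4.3.3 (eBayes with a variance trend, two-sided, Benjamini-Hochberg over all genes tested, threshold 0.05), without covariates. A log2 fold change on this scale understates the change of low genes. The fit was also run on simulated reads with the same spread for all genes, a simpler case than these data. The 8 genes, the lists and the tests were chosen with earlier results of these data known. Named genes were the 8, in each list the called genes of lowest adjusted p, up to 4, averaging 1 FPKM or more, genes overlapping the 8, and the 5 nearest genes to the largest fall and rise. All pairs of replicates differed by more than sampling noise. Alternatives were other scalings, pseudocounts, filters, variance models, voom on recovered reads, a replicate block and leaving out each sample. Python 3.11.15, pandas 2.3.3 and matplotlib 3.10.9 were used. GENCODE M21 gave the same coordinates for all 8 genes. Some genes of the lists entered the counts and are not reported here.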

Additional observations from a re-analysis of the deposited data

How the results depend on the processing

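Over all genes, limma called 1397 higher and 1798 lower. Scaled to total recovered reads these were 2336 and 1093, with the median of all genes at 0.08 on the log2 scale in place of -0.01, so the higher share of calls went from 43.7% to 68.1%; it was 53.8% after rescaling without the 50 highest genes. Leaving out 1 library at a time gave 782 to 1380 higher and 1027 to 1853 lower genes. Among the 100 other genes of GABA handling, the 9 higher calls were 14 with voom on recovered reads and 6 to 11 with 1 library left out, and the 13 lower calls were 7 when scaled to total reads, 19 with voom, 9 without a variance trend, and 7 to 14 with 1 library left out. The log2 difference of Gad1 (-2.59) was -3.06 with a pseudocount of 0.1, -3.13 with voom, and -2.90 to -2.40 with 1 library left out. Abat, Aldh5a1 and Gabbr2 were lower under each of the 18 alternatives run, and Gabbr1 lay between -0.03 and 0.13. Not all of these could have differed. The filters, the limma variance models and the replicate block leave a log2 difference unchanged. Median-of-ratios scaling hardly moves it, as its factor was 1.01 in every sample. Their agreement is no sign of stability. The size of the fall depended on scaling. With total recovered reads, Abat went from -0.398 to -0.290, Aldh5a1 from -0.216 to -0.116 and Gabbr2 from -0.353 to -0.251. Deviations of same-numbered samples were only slightly correlated (0.029, 0.038 and 0.018), and other pairs gave -0.037 to 0.013. Correlations this small do not settle whether the numbers pair the samples. With the replicate number as a block 1148 genes were higher and 1490 lower, 8 and 10 of them genes of GABA handling. Each group holds each number, so the block cannot change a log2 difference, and that of Gad1 is -2.59 by design. The block ended the calls of Slc1a5, Dlst, Gphn, Zdhhc3 and Dnajc5 (adjusted p by limma 0.0517 to 0.0685). Testing with no filter on low values ended those of Slc1a5, Slc38a2, Dlst, Kctd8 and Gphn (0.0628 to 0.0784), and scaling to total reads those of Slc38a2, Dlst, Gphn, Ubqln1, Zdhhc3 and Dnajc5 (0.0872 to 0.260). Quantile normalization, rescaling without the 50 highest genes and no variance trend each ended those of Slc38a2, Dlst, Ubqln1 and Dnajc5 (0.0533 to 0.146). Depth limits Gad2, Gabra4 and Slc32a1, with at most 24 reads in a library.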
